A study of Mus musculus with 25 samples.

Results

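Retinoic acid reaches its receptors through a chain of proteins that take up its precursor, make it, bind it and destroy it. The genes examined here were 9 members of that chain: Stra6, Aldh1a2, Aldh1a3, Cyp26a1, Cyp26b1, Cyp26c1, Crabp1, Crabp2 and Dhrs3. They were taken by symbol, and every probe that the platform annotation names for one of them was read. Of the 25697 probes on the array, 9 belonged to 8 of the 9 genes, with 2 probes for Aldh1a2 (ILMN_2630749, the brighter, and ILMN_2630753). The other probes were ILMN_2753792 (Stra6), ILMN_2761436 (Aldh1a3), ILMN_2691295 (Cyp26a1), ILMN_2905120 (Cyp26b1), ILMN_1227671 (Crabp1), ILMN_1214483 (Crabp2) and ILMN_2759095 (Dhrs3). No probe carried the symbol Cyp26c1, which was not analysed here. The probe of Dhrs3 was above background on none of the 25 arrays, which left 7 members among the 10261 genes tested.

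Each array held RNA of 1 mouse embryo, wild type (WT) or knockout (KO) for miR-302, all of the B6 strain. The design text of the series describes replicates as separate embryos. Whole embryos of embryonic day 7.5 (E7.5) gave 2 WT and 3 KO arrays. Anterior neural tissue gave 2 WT and 3 KO arrays at E8.0, 3 and 3 at E8.5, and 4 and 4 at E9.5. One more WT array of E8.0 has the label whole embryo and entered no comparison. The sources used here do not say how the KO allele was made or in which cells it acts.

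As background, STRA6 is a membrane receptor that takes up retinol from its carrier protein. Retinol is oxidised to retinaldehyde, and the retinaldehyde dehydrogenases ALDH1A2 and ALDH1A3 convert that to retinoic acid, ALDH1A2 mainly in early mesoderm and ALDH1A3 mainly in the eye and the surface ectoderm of the head. DHRS3 reduces retinaldehyde back to retinol. The cellular binding proteins CRABP1 and CRABP2 hold retinoic acid in the cytoplasm, and CRABP2 can pass it to the nuclear receptors. The cytochrome P450 enzymes CYP26A1, CYP26B1 and CYP26C1 oxidise it, and by doing so keep the forming head low in retinoic acid. Receptors bind DNA as pairs at direct repeats of a short unit.

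Mature microRNAs of the miR-302 cluster are shown to identify what the genotype label names. Which members of the cluster the KO lacks is not stated. The 3p forms held in the table used are printed. The sequences are from RefSeq (GRCm38.p6, chromosome 3, plus strand), with the seed, bases 2 to 8, in capitals. miR-302b-3p and miR-302d-3p share 1 seed, and that of miR-302c-3p is written 1 base along.
miR-302b-3p: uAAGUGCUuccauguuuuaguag
miR-302d-3p: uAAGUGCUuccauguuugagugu
miR-302c-3p: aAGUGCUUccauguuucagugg
miR-367-3p: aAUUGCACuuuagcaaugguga

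A promoter is shown for Cyp26a1, whose transcription is known to rise with retinoic acid, beside that of the receptor gene Rarb, a classical target. RefSeq windows of 300 bases, 250 before to 50 after the start site, were searched on both strands for 2 units, each AGGTCA or AGTTCA or GGGTCA or GGTTCA, separated by NNNNN. A match stood in 32 of 32851 windows (0.0974%). Of the members, 7 genes had 12 windows in the table, and Cyp26a1 was the gene with a match. Among 35 other genes of the pathway, with 49 windows, Rarb was the gene with one. The matches are capitals in the sequences below, which read 5′ to 3′ along the gene. In Cyp26a1 the repeat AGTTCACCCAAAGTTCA lies on the other strand and ends 15 bases before the start site, and in Rarb the repeat lies on the gene's strand and ends 36 bases before it.
Cyp26a1 promoter, chr19:37697558-37697857 (GRCm38.p6, plus strand): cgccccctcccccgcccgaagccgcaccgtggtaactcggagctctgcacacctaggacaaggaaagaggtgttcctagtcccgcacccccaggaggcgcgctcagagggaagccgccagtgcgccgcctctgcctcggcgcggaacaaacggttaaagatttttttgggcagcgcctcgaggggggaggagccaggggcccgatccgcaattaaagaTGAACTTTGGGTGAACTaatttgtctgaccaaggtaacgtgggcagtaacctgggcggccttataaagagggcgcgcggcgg
Rarb promoter, chr14:16575427-16575726 (GRCm38.p6, minus strand): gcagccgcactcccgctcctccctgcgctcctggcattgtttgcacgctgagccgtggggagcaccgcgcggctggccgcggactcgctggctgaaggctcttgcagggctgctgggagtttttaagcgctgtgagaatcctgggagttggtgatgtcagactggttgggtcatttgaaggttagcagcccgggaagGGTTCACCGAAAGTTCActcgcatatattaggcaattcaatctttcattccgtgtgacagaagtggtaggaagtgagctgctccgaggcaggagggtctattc
A match of letters is a description, and binding was not measured in these samples.

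Between 10933 and 13612 probes were above background on an array (detection p under 0.05), and arrays of 1 group correlated at 0.956 to 0.995. The median raw signal was 107 to 148 from E7.5 to E8.5 and 222 to 262 at E9.5. All E9.5 arrays carried the label plate 4 and no other array did, so stage and plate cannot be told apart there. Of the E8.0 arrays compared, plate 2 held the first KO array and plate 1 the rest. At E8.5 plate 2 held the 3 WT arrays and the first KO array, and plate 3 the other KO arrays. No probe carried a symbol of the miR-302 cluster, so the genotype labels had no check. For the 3 E8.0 WT arrays, the signal of each fitted the detection p of another better than its own, and the authors' processed table had the same exchange. Signals were kept under the identity of their header, and the detection p of these 3 arrays was not read singly. It still guided their background correction, paired by header. Counts of members called at E8.0 are also given with the exchanged identity. That run changed both the labels of these arrays and the detection p paired with each signal. For visceral endoderm, heart and paraxial mesoderm genes, the array labelled whole embryo had summed signals of 539, 749 and 634. Both other E8.0 WT arrays were higher (554 and 2009, 1137 and 7331, 1492 and 1827), against its label. Its trophoblast sum was higher than theirs (10792 against 5951 and 4402), which went with its label. So did its neural progenitor sum, which was lower (753 against 1315 and 1232). Its forebrain and eye field sum was higher than theirs (3978 against 2080 and 1890), against its label. Whole embryos of E7.5 WT had trophoblast sums of 2937 and 3063 and visceral endoderm sums of 52098 and 30527. The E8.0 KO neural arrays had trophoblast sums of 7504 to 12585. These sums did not settle its label. The tissue label was checked with neural progenitor genes (Sox1, Sox2, Hes5, Nes, Fabp7), whose summed signal was 333 to 777 at E7.5, 450 to 1535 at E8.0 and E8.5, and at E9.5 2187 to 3092 in WT and 4756 to 6935 in KO. The array does not tell fewer cells of a type from less RNA per cell.

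Aldh1a3, a retinoic acid synthesising enzyme, rose in neural tissue between E8.5 and E9.5 in both genotypes and was lower in the KO at E9.5. Its probe was above background on none of the E7.5 arrays and none of the E8.5 WT arrays. Levels here and below are log2 of normalized signal, and differences are KO minus WT or later minus earlier on that scale. The E8.0 arrays of Aldh1a3 read 4.80 and 4.67 in WT and 5.27, 5.01 and 5.15 in KO. The KO arrays were all higher, at a level where none of them was above background. The E8.5 WT arrays read 4.90, 5.52 and 4.81, and the E8.5 KO arrays 6.08, 5.27 and 5.41. Only the first of these KO arrays was above background, and the genotypes overlapped. At E9.5 all arrays were above background. The WT arrays read 8.06, 7.49, 7.47 and 8.26, and the KO arrays 6.46, 6.40, 6.29 and 6.84. Every KO array was below every WT array, with means of 6.5 ± 0.24 (SD, n = 4) and 7.82 ± 0.40 (SD, n = 4).

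In limma, Aldh1a3 was 2.5-fold lower in the E9.5 KO (log2 difference -1.32, SE 0.203, adjusted p = 0.00152). It was the member called among the 7 tested, where 2.27% of all genes were called. Beside it, 1 other member (Stra6) had an unadjusted p under 0.05, where 1850 of 10261 genes did. The WT rise from E8.5 to E9.5 was at least 4.2-fold (log2 2.74, SE 0.22, adjusted p = 3.57e-08), and the KO rise was 1.88-fold (log2 0.91, SE 0.22, adjusted p = 0.00352). The test of the difference between the KO effects at the 2 stages gave -1.83 (SE 0.311, 95% interval -2.48 to -1.18, limma adjusted p = 0.0029). The E8.5 side of this change rests on WT signal that was not above background, whereas the E9.5 side was measured in both genotypes. Within plate 2 the E8.5 difference was 1.00 against 0.51 over all arrays and did not pass (adjusted p = 0.161). The change of the KO effect was -2.32 when plate was a covariate (adjusted p = 0.00663). All 4 of these calls were kept under every alternative that was run for them. The E9.5 KO difference had 17 such settings and ran from -1.44 to -0.69, and the change of the KO effect had 23 and ran from -2.32 to -0.79.

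Marker sums were also compared at E9.5, where some lists separated by genotype and others overlapped. How often lists of other genes would separate was not tested. The summed linear signal of 10 of 11 listed surface ectoderm genes was 8911 to 13377 in WT and 7672 to 8187 in KO. The groups did not overlap, and all 10 genes were above background in both. In KO minus WT at E9.5 limma called 0 of the 10. An unadjusted p under 0.05 was found for 4 of them and for 1850 of 10261 genes. A lower KO effect at E9.5 than at E8.5 passed for 4 (Cdh1, Cldn6, Krt18 and Wnt6), where 10.1% of all genes were called. Forebrain and eye field genes (5 of 9) summed to 2589 to 2850 in WT and 1622 to 2635 in KO, and Six3, an eye field factor above background on 4 of 4 WT and 0 of 4 KO arrays, was at least 1.45-fold lower (limma adjusted p = 0.0227). Neural crest and head mesenchyme genes (6 of 11) summed to 7983 to 8526 in WT and 6015 to 8669 in KO, with Tfap2a 0.60 lower. Midbrain and hindbrain genes (8 of 10) went the other way, 1500 to 2981 in WT and 6103 to 8988 in KO. Neural progenitor genes (5 of 7) were also higher in KO, 2187 to 3092 against 4756 to 6935, with Hes5, a Notch target, 2.15 higher. Caudal and axial genes (5 of 9) summed to 1420 to 1856 in WT and 2207 to 3016 in KO. Only Wnt3a of that list was called (1.36 higher, from 9.35 in WT to 10.71 in KO). Cdx2 and Nkx1-2 were not above background in either genotype, and Evx1 was not in WT. Trophoblast genes (7 of 9) summed to 2031 to 2454 in WT and 1487 to 2024 in KO. Hand1 and Prl4a1 were not above background in either genotype, and Ascl2 was not in WT. Of these 7 genes limma called 0, where 2.27% of all genes were called, and 1 had an unadjusted p under 0.05. Paraxial mesoderm, neuron, heart and visceral endoderm sums overlapped, as did those of the forebrain and neural crest lists. The part of these cell types in the Aldh1a3 difference was not tested.

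**Figure D1:**
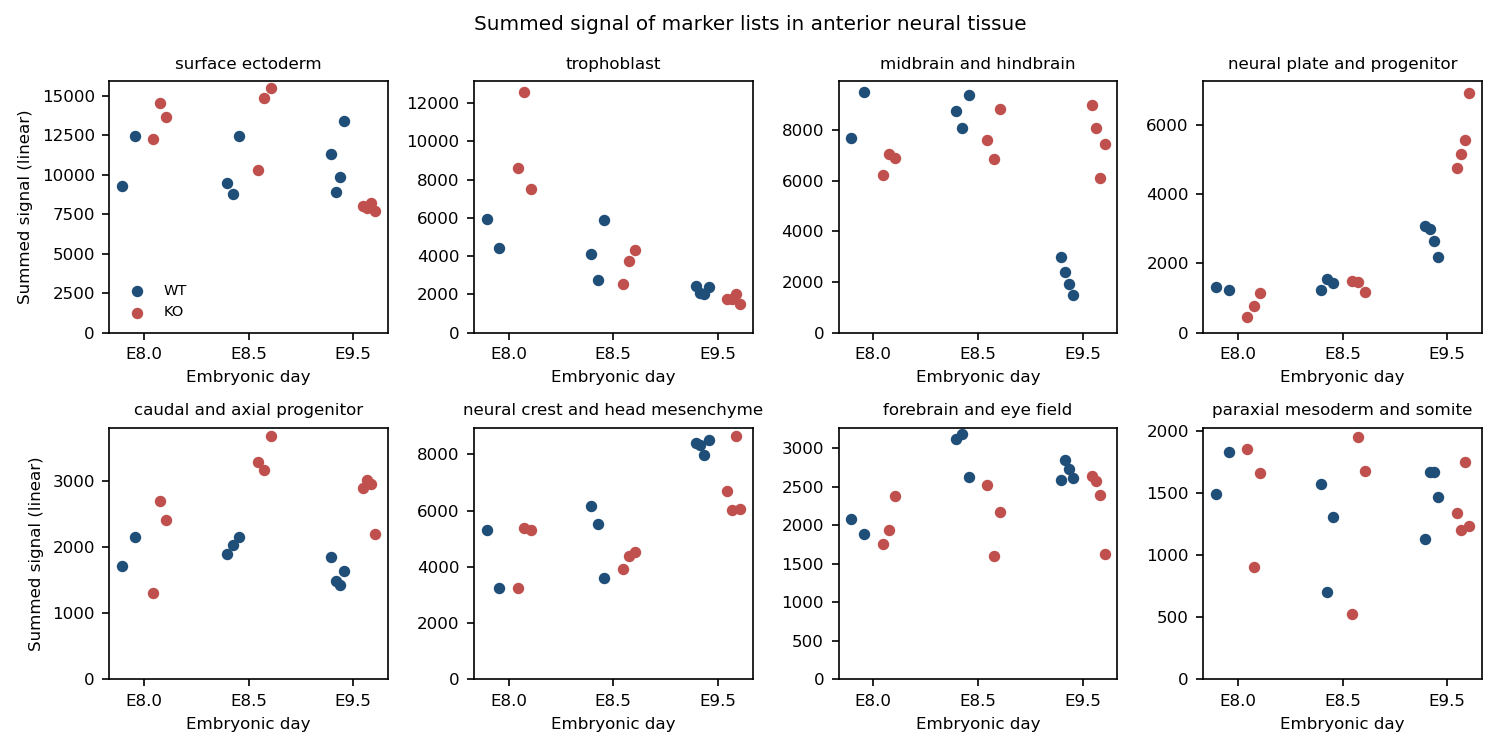
Summed linear signal of 8 marker lists (vertical axis) in anterior neural tissue by embryonic day, 1 point per array, WT in blue and KO in red. At E9.5 the KO arrays lie below the WT arrays for surface ectoderm (7672 to 8187 against 8911 to 13377) and above them for midbrain and hindbrain (6103 to 8988 against 1500 to 2981).

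Aldh1a2, the main retinoic acid synthesising enzyme of the early embryo, followed the opposite course and was lowest at E9.5. Whole E7.5 embryos read 9.02 and 9.52 in WT and 8.19, 7.63 and 8.51 in KO, for the brighter of its 2 probes. The 3 KO embryos all lay below both WT embryos. The difference was -1.16 (SE 0.377, 95% interval -1.95 to -0.37) and did not pass in limma (adjusted p = 0.34). Its second probe read 8.30 and 8.46 in WT and 7.80, 7.31 and 8.0 in KO, again without overlap (-0.68, SE 0.47, adjusted p = 0.764 in the fit of all probes). With no background correction, and in the authors' processed values, the difference of the brighter probe passed (-0.86, adjusted p = 0.0396, and -0.78, adjusted p = 0.0274).

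In E8.0 neural tissue Aldh1a2 read 6.36 and 6.52 in WT and 5.01, 5.76 and 6.87 in KO, with overlap. The E8.5 arrays read 6.61, 6.17 and 6.63 in WT and 5.04, 6.06 and 5.89 in KO. The KO arrays were all lower, with 1 of them not above background, and the difference did not pass (-0.80, SE 0.337, limma adjusted p = 0.156). The second probe overlapped at E8.5, at 6.83, 4.96 and 6.54 in WT and 5.38, 5.51 and 6.70 in KO. Its difference was -0.24 there (adjusted p = 0.781 in the limma fit of all probes) and 0.01 at E8.0. At E9.5 the brighter probe was above background on 0 of 8 arrays, at 4.76 to 5.15. The fall in WT from E8.5 to E9.5 was at least 2.08-fold (log2 -1.52, SE 0.316, adjusted p = 0.000663), while the second probe, above background on 2 of 3 WT arrays at E8.5, gave -0.90 and did not pass (adjusted p = 0.0767). In the authors' processed values, where E9.5 was normalized apart from the earlier stages, the difference was -0.07 (adjusted p = 0.535). In KO the difference was -0.80 (adjusted p = 0.0573), and without the first E8.5 KO array it was -1.11 and passed (adjusted p = 0.0175). Over the same step in WT, the paraxial mesoderm gene Meox1 fell by 2.95 (log2, above background on 1 of 4 arrays at E9.5), Tcf15 fell at least 3.55-fold and Foxc1 rose by 1.64. The summed signal of that list (7 of 12 genes) was 702 to 1570 at E8.5 and 1124 to 1670 at E9.5. Its part in the Aldh1a2 difference was not tested.

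**Figure D2:**
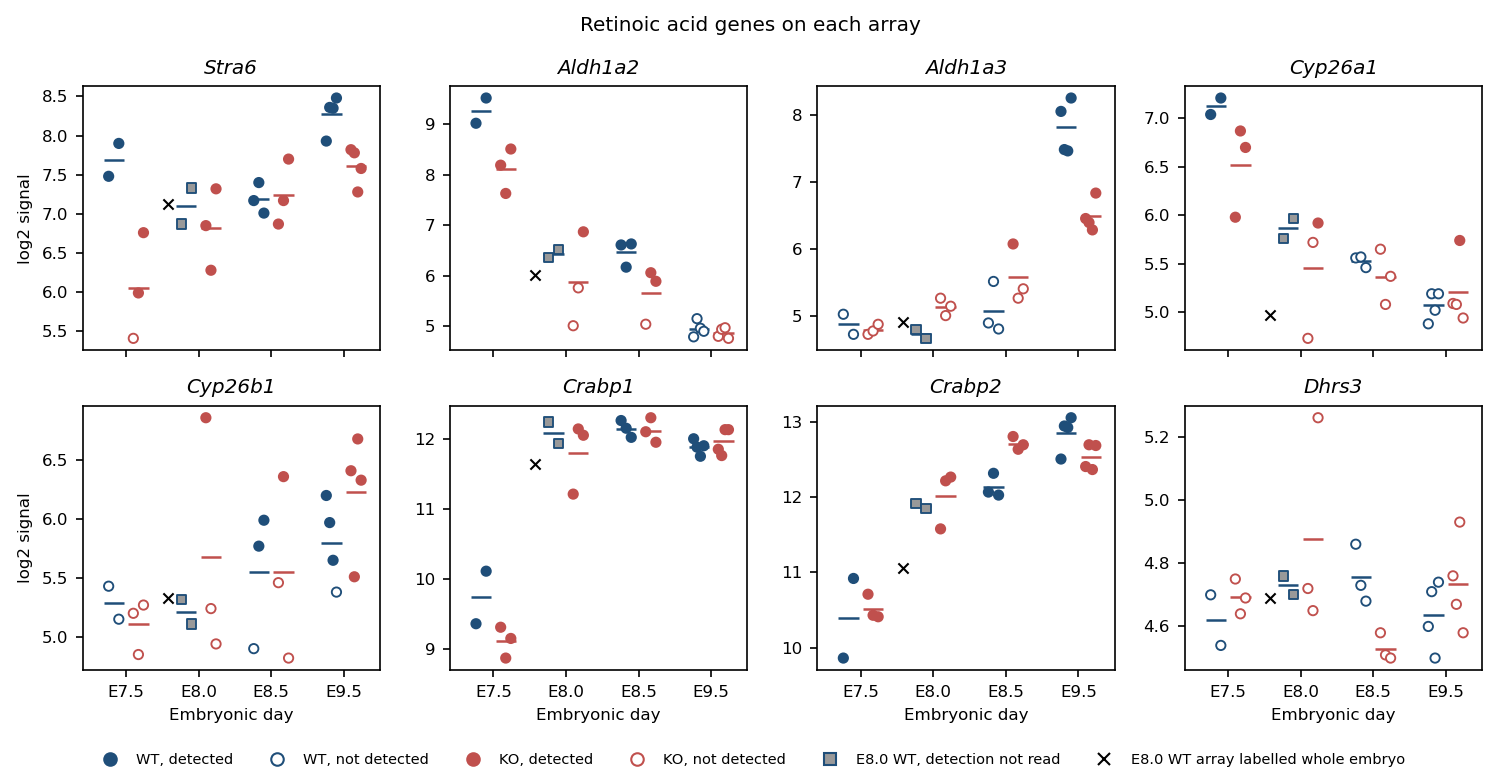
Normalized log2 signal (vertical axis) of the 8 members with a probe on each array by embryonic day. Points are arrays and short lines are group means, WT in blue and KO in red, filled where the probe was above background. Squares are E8.0 WT arrays whose detection was not read, and the cross is the array labelled whole embryo. Aldh1a3 at E9.5 reads 7.47 to 8.26 in WT and 6.29 to 6.84 in KO.

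Stra6, the retinol uptake receptor, was lower in KO whole embryos of E7.5. The WT embryos read 7.48 and 7.90 and the KO embryos 5.41, 5.99 and 6.76, the first of them not above background. All KO values lay below both WT values, with means of 6.05 ± 0.68 (SD, n = 3) and 7.69 ± 0.30 (SD, n = 2). The difference was 3.1-fold (log2 -1.63, SE 0.336, limma adjusted p = 0.0465), and Stra6 was the member called of 7, where 0.224% of all genes were called. This call sat at the threshold. It was lost without the first KO array (-1.31, adjusted p = 0.135), without the second (adjusted p = 0.148), without either WT array (adjusted p = 0.0628 and 0.313), and in a fit of the E7.5 arrays alone (adjusted p = 0.805). With no background correction the difference was -0.75 (adjusted p = 0.0742), and in the authors' processed values it was -0.51 (adjusted p = 0.187). Among the E7.5 arrays, plate 2 held the first KO array and plate 1 the rest, so the first of these values is also that within plate 1.

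Marker sums of the E7.5 embryos separated by genotype for some lists and overlapped for others. Trophoblast genes (7 of 9 listed) summed to 10249, 4326 and 3078 in KO and 2937 and 3063 in WT, the nearest values almost equal. Midbrain and hindbrain genes summed to 9737, 9752 and 11807 in KO and 12070 and 12157 in WT. Neuron genes summed to 1407, 960 and 1084 in KO and 829 and 847 in WT. Of these lists, En1, En2, Wnt1, Egr2, Tubb3, Elavl4 and Neurog1 were not above background in either genotype. Paraxial mesoderm genes overlapped, at 2218, 1988 and 3763 in KO and 3883 and 3331 in WT. So did visceral endoderm genes, at 45122, 52325 and 49435 in KO and 52098 and 30527 in WT. In KO minus WT at E7.5 limma called 0 genes of these lists, where 0.224% of all genes were called. Higher in KO were 7 of 7 trophoblast (median 0.76), 6 of 6 neuron (0.17) and 4 of 8 midbrain and hindbrain genes (0). So were 2 of 7 paraxial mesoderm (-0.14) and 6 of 7 visceral endoderm genes (0.27). An unadjusted p under 0.05 was found for 3 trophoblast genes, 1 paraxial mesoderm gene and 0 of the other lists, beside 817 of 10261 genes. The part of these tissues in the Stra6 difference was not tested.

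In neural tissue the genotypes did not separate in Stra6 until E9.5. The WT arrays read 6.87 and 7.33 at E8.0 and 7.17, 7.40 and 7.01 at E8.5, and the KO arrays 6.85, 6.28 and 7.32, then 6.87, 7.17 and 7.70. The genotypes overlapped at both stages, and the differences were -0.28 (95% interval -0.99 to 0.42) and 0.06 (-0.57 to 0.68). At E9.5 the WT arrays read 7.93, 8.36, 8.35 and 8.48 and the KO arrays 7.82, 7.78, 7.28 and 7.58. Every KO array was below every WT array, by 0.66 on average, but the difference did not pass (SE 0.26, limma adjusted p = 0.183). It passed in a fit of the E9.5 arrays alone (adjusted p = 0.044) and in the authors' processed values (-0.43, adjusted p = 0.0146). From E8.5 to E9.5 Stra6 rose 2.13-fold in WT (log2 1.09, SE 0.281, adjusted p = 0.00395), a call lost with plate as a random block (adjusted p = 0.0677). The KO step was 0.37 (adjusted p = 0.332), and the test of the difference between the genotypes gave -0.72 (SE 0.398, adjusted p = 0.254), so the steps were not shown to differ.

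The clearance enzyme Cyp26a1 was above background on all E7.5 arrays and on few later ones. The WT embryos of E7.5 read 7.04 and 7.21 and the KO embryos 5.98, 6.87 and 6.70. All KO embryos were lower, and the difference did not pass (-0.61, SE 0.3, limma adjusted p = 0.64). In neural tissue its level was 4.73 to 5.97, and 1 KO array was above background at E8.0 and 1 at E9.5, with none of the 6 at E8.5. No later contrast of Cyp26a1 passed, and the interval of the E9.5 difference was -0.35 to 0.63.

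Cyp26b1, which clears retinoic acid in the hindbrain among other places, was seldom above background before E9.5. At E8.0 a single KO array stood at 6.86, with the other KO arrays at 5.24 and 4.94. It was the first KO array, on another plate than the rest compared, with the fewest probes above background of all arrays (10933). The E9.5 WT arrays read 6.20, 5.97, 5.65 and 5.38, 3 of them above background, and the KO arrays 6.41, 5.51, 6.68 and 6.33, all above it. The groups overlapped (0.43, 95% interval -0.35 to 1.22, limma adjusted p = 0.611). Dhrs3, which turns retinaldehyde back to retinol, had a signal of 4.50 to 5.26 over all arrays and a lowest detection p of 0.155, so its levels have no order here.

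Both binding proteins were above background on all 25 arrays. Crabp1 read 9.36 and 10.11 in WT and 9.31, 8.87 and 9.15 in KO at E7.5. The KO embryos were all lower, by a small margin at the nearest, and the difference did not pass (-0.62, SE 0.242, limma adjusted p = 0.495). In neural tissue Crabp1 stayed at 11.21 to 12.30 on every array compared. Its genotype differences there were between -0.28 and 0.09, and that at E9.5 had an interval of -0.30 to 0.48.

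Crabp2, the binding protein that delivers retinoic acid to its receptors, rose in WT neural tissue from E8.5 to E9.5. The E8.0 arrays read 11.92 and 11.85 in WT and 11.58, 12.22 and 12.27 in KO, with overlap. The E8.5 WT arrays read 12.07, 12.32 and 12.03 and the KO arrays 12.81, 12.64 and 12.70. All KO arrays were above all WT arrays at that stage, but the difference did not pass (0.58, SE 0.222, limma adjusted p = 0.125). At E9.5 the order of the means was turned, with WT at 12.51, 12.95, 12.93 and 13.06 and KO at 12.41, 12.70, 12.37 and 12.69. The groups overlapped there (-0.32, SE 0.192, adjusted p = 0.403). In WT the step from E8.5 to E9.5 was a 1.65-fold rise (log2 0.72, SE 0.208, adjusted p = 0.00848), a call lost with plate as a random block (adjusted p = 0.073), and in KO it was -0.17. The change of the KO effect between these stages was -0.90 (SE 0.294, adjusted p = 0.0579). It passed when the arrays were blocked by replicate number (adjusted p = 0.0474), in a fit of only these groups (adjusted p = 0.017) and without the first E9.5 WT array (-1.01, adjusted p = 0.0315).

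**Figure D3:**
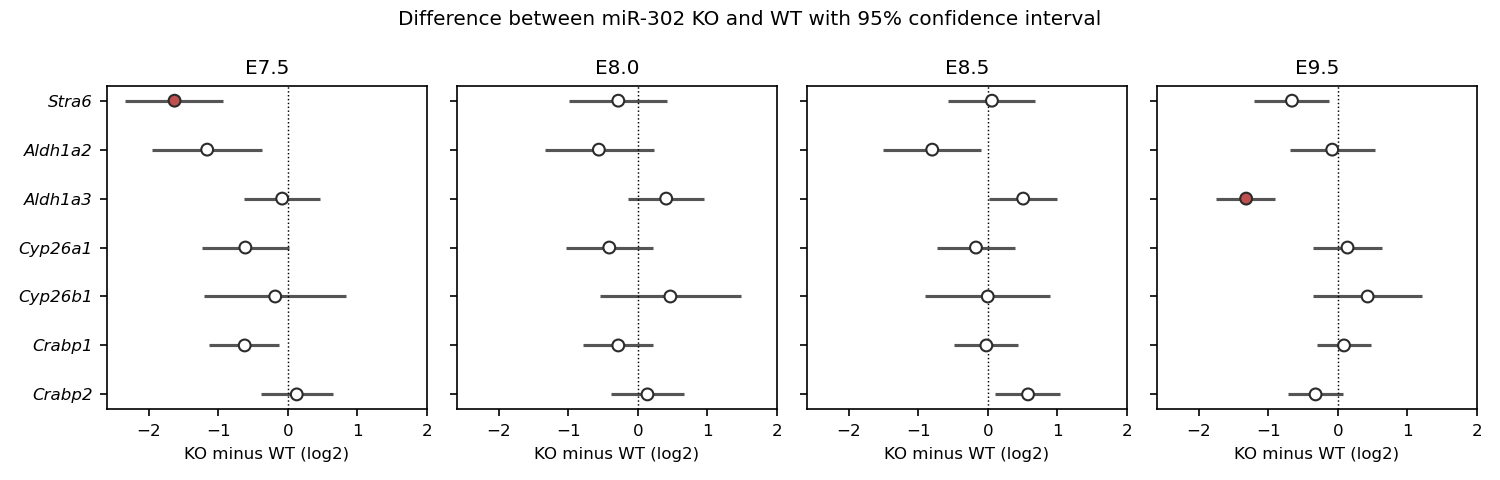
KO minus WT log2 difference (horizontal axis) of the 7 tested members at each stage with its 95% confidence interval from limma, red where the adjusted p was under 0.05. Stra6 at E7.5 (-1.63) and Aldh1a3 at E9.5 (-1.32) are red.

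Counted by comparison, 0 of 7 members were called in KO minus WT at E8.0 by limma, where 1.73% of all genes were. There 0 members had an unadjusted p under 0.05, beside 2039 of 10261 genes. With the exchanged identity of the E8.0 WT arrays the count was also 0, and 16 genes in place of 178 were called. That run also changed the detection p that guided background correction, so labels and correction cannot be told apart in this count. The member values then were Stra6 -0.41, Aldh1a2 -0.39, Aldh1a3 0.37, Crabp1 0.02, Crabp2 0.57, Cyp26a1 -0.02 and Cyp26b1 0.47. At E8.5 the count was 0 against 5.59% of all genes. An unadjusted p under 0.05 was found for 3 members (Aldh1a2, Aldh1a3 and Crabp2) and for 2360 of 10261 genes. The median of the 7 members was -0.61 at E7.5, -0.28 at E8.0, 0.00 at E8.5 and -0.08 at E9.5. Over all genes tested it was between -0.02 and 0.03.

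Between stages, 4 of 7 members were called in WT from E8.5 to E9.5 (Aldh1a3, Stra6 and Crabp2 up, Aldh1a2 down), a step at which 41.9% of all genes were called, 18.9% higher and 22.9% lower. With plate as a random block the calls of Aldh1a2 and Aldh1a3 were kept, and those of Stra6 and Crabp2 were lost. In KO, 1 member (Aldh1a3) was called and 34.2% of genes. For the change of the KO effect, the member called was Aldh1a3, against 10.1% of genes. From E8.0 to E8.5 limma called 0 members in WT (0.039% of genes, 0 members at an unadjusted p under 0.05) and 0 in KO (3.21%, 1 member). For the change of the KO effect over that step it called 0 (0.127%, 0 members). Over all 10261 genes, 701, 1991 and 955 had an unadjusted p under 0.05 in these comparisons, in that order. With the exchanged identity of the E8.0 WT arrays, no member passed in the WT step or in the change of the KO effect.

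Ordered by group mean, the neural stages of WT ran, from low to high, E8.0, E8.5 and E9.5 for Stra6 and Crabp2. For these genes the step from E8.0 to E8.5 did not pass. With the exchanged identity it was -0.04 for Stra6 in place of 0.09, which turns the order of E8.0 and E8.5. For Crabp2 it was 0.69 in place of 0.26. Aldh1a3 was highest at E9.5, and its earlier WT levels, not above background, have no order. The order was E9.5, E8.0 and E8.5 for Aldh1a2, with its E8.0 and E8.5 means of 6.44 and 6.47 closer than their spread, and likewise for Crabp1, where no step passed. The neural levels of Cyp26a1 and Cyp26b1 lay too near background to be ordered, and no WT step of either passed. In KO the order was E8.0, E8.5 and E9.5 for Stra6 and E8.0, E9.5 and E8.5 for Crabp2, and of the KO steps tested only that of Aldh1a3 from E8.5 to E9.5 passed. E7.5 was whole embryo and was not set against the neural stages in these orders or in a contrast.

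The rest of the pathway was read as 3 lists. Of 12 receptors and cofactors, 9 were tested, of 20 genes for retinol transport and other enzymes 10, and of 25 genes known to respond to retinoic acid in embryos 18. In KO minus WT, limma called 0 of them at E7.5 (unadjusted p under 0.05 in 0, 0 and 3 genes of the lists in that order) and 0 at E8.0 (3, 3 and 1 genes). Over all 10261 genes the unadjusted p was under 0.05 in 817 at E7.5 and 2039 at E8.0, and 0.224% and 1.73% were called. At E8.5 limma called 0, 1 and 0 genes of the lists, where 5.59% of all genes were called. An unadjusted p under 0.05 was found there for 4, 1 and 4 genes, beside 2360 of all genes. At E9.5 it called 0, 1 and 1, where 2.27% of all genes were called. The unadjusted counts there were 2, 2 and 6, beside 1850 of all genes. The median of the responsive genes was -0.40 at E7.5, with 4 of 18 above 0, beside 0 over all genes. Their median was 0.01 at E8.0, 0.02 at E8.5 and 0.13 at E9.5. Rarb, both a receptor and a target of retinoic acid, differed by -0.16, 0.32, 0.15 and -0.56 over the 4 stages and passed at none of them (adjusted p from 0.569 to 0.973).

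The enzyme gene Aldh1a7, a close paralogue of Aldh1a1, was called at both later stages and in opposite directions. At E8.5 it read 4.70, 4.73 and 4.75 in WT, none above background, and 5.76, 6.12 and 5.47 in KO, the second of them above background. The KO arrays were all higher, by at least 1.03-fold (log2 1.06, SE 0.19, limma adjusted p = 0.00465). At E9.5 the WT arrays read 6.54, 6.75, 6.91 and 7.47 and the KO arrays 6.10, 6.05, 5.97 and 5.72. There every KO array was lower, 1.94-fold on average (log2 -0.96, SE 0.165, adjusted p = 0.00394). The change of the KO effect passed (adjusted p = 0.00075), and its size is not given because the E8.5 side was near background. Whether the probe also binds Aldh1a1 RNA was not tested.

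Hoxb2, a hindbrain gene that responds to retinoic acid, was 2.26-fold higher in the E9.5 KO (log2 1.17, SE 0.297, limma adjusted p = 0.0415), with ranges of 7.37 to 8.79 in WT and 8.71 to 9.89 in KO that overlapped. It is also one of the midbrain and hindbrain markers whose sums differed above. In WT from E8.5 to E9.5, where 18.9% of all genes rose and 22.9% fell, 2 of 9 receptor and cofactor genes fell (Ncoa3 and Rxrb, by 0.99 and 0.96). Of the enzyme list 4 of 10 rose (Adh5 1.14, Aldh1a7 at least 2.25-fold, Fabp5 0.69, Rdh14 1.03). Of 18 responsive genes 5 rose (Isl1 1.43, Nr2f1 1.12, Nr2f2 1.54, Pdgfra 0.64, and Tlx2, above background on 0 of 3 arrays and then 3 of 4) and 2 fell (Hoxa2 -0.90, Hoxb2 -1.50). In KO over the same step, Rxrb fell by 0.46, and Adh5 (1.10) and Rdh14 (0.77) rose. Among the responsive genes Nr2f1, Nr2f2 and Pdgfra rose by 1.05, 1.21 and 0.95. Hoxa4 and Hoxb4 fell at least 1.96-fold and 1.46-fold, and Hoxd4, above background on 2 of 3 arrays and then 1 of 4, fell by 2.20. Rara and Tlx2 also passed in KO, with 0 of 3 arrays above background at E8.5 and 1 and 0 of 4 at E9.5, so no size is given.

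**Figure D4:**
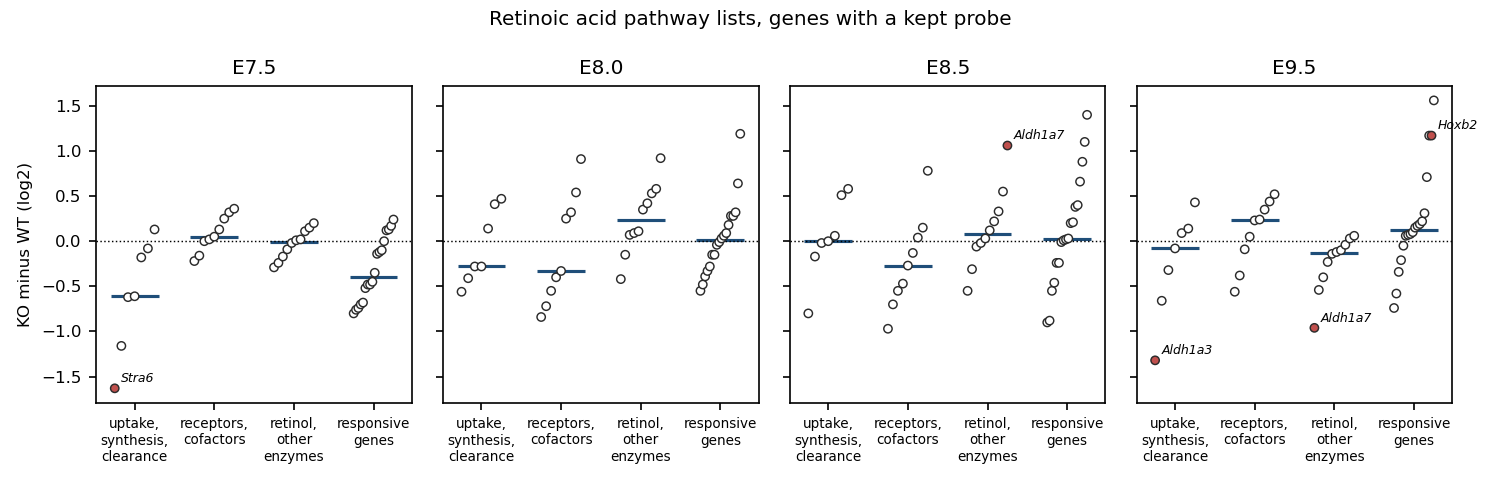
KO minus WT log2 difference (vertical axis) of each tested gene of 4 retinoic acid lists at each stage. Lines are list medians and red points passed at an adjusted p under 0.05. The named points are Stra6 at E7.5 (-1.63), Aldh1a7 at E8.5 (1.06) and E9.5 (-0.96), Aldh1a3 (-1.32) and Hoxb2 (1.17).

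The genes with the most similar course were found by the root mean square difference of centred group means over the 8 groups compared. These groups include the E7.5 whole embryos, so spans and likeness also take in the difference between whole embryo and neural tissue. For Aldh1a3, whose means spanned 3.08, they were Cetn2 and Sarnp (0.23 each). For Aldh1a2, with a span of 4.40, they were Hdc (0.29) and Chrd (0.35). Stra6 (span 2.23) lay closest to Fam199x and Amd2 (0.26 each), and Cyp26a1 (2.06) to Gpr83 (0.14) and Rasgrp1 (0.15). Crabp1 (3.03) lay closest to Sox5 (0.26) and Lmx1a (0.28), and Crabp2 (2.47) to Gm1673 (0.20) and Dtna (0.22). For Cyp26b1, which spanned 1.13, they were Usp3 (0.08) and Hnrnpm (0.10).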

How the data were processed

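Total RNA of single embryos was extracted with Trizol, amplified to biotin-labelled cRNA and hybridised to Illumina MouseRef-8 v2.0 arrays, per the labels' protocols. The deposited raw table gives each probe an average signal, which is a linear intensity that was not normalized, and a detection p-value, per the file headers. The sources used here do not say how the authors made these p-values. The authors' processed intensity table, deposited with E9.5 scaled apart from the other stages, served as an alternative. All columns of both tables were mapped to samples.

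Background was removed by normexp, guided by the detection p-values, followed by quantile normalization and log2 with 16 added (neqc, limma 3.58.1, R 4.3.3). Probes with detection p under 0.05 on at least 3 arrays were kept (15030), and the probe with the highest mean stood for a gene. Names came from the platform annotation, which can be old. One limma fit (lmFit, eBayes) over 25 arrays had a coefficient for each of 9 groups and 16 residual degrees of freedom. Tests were two-sided, with Benjamini-Hochberg adjustment over 10261 genes in a contrast and a call under 0.05. Every adjusted p in the text is from limma. The number of arrays limits the precision. Folds against a group with no array above background are lower bounds. They use, per array of that group, the higher of the probe's own level and the dimmest detected probe. The fit was tested on simulated data.

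The text names all members, the genes of 3 pathway lists that passed, and per member the 2 genes of nearest course. Other genes named, Rarb among them, were chosen after their values were seen. Members and lists were chosen with earlier results of these data known.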

Additional observations from a re-analysis of the deposited data

Results flagged for a closer look

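The KO effect on Aldh1a3 differed between stages, with a change of -1.83 (log2) from E8.5 to E9.5 in a test of the difference itself. One array stood apart in its group: the lowest E9.5 WT array of the second Aldh1a2 probe read 4.80, with the other 3 at 5.30 to 5.40. That probe was above background on none of these 4 arrays. Over 16 groups of 4 arrays, chance alone would single out about 1 in 20 groups in this way.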

How the results depend on the processing

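Of 130 alternative values of called results, 14 lost the call and 0 changed sign. Of 1067 alternative values of results not called, 67 changed sign without a call and 20 were called. The number of members called in KO minus WT at E7.5 was 1, and 0 with a detection p under 0.01 as the filter (Stra6 adjusted p = 0.0505), with every probe tested (0.0516), with only the E7.5 groups, with plate as a covariate (0.0781) and within plate 1, which was added after seeing the data. Leaving out single arrays gave 0 to 1. At E9.5 it was 1, and 2 with only the E9.5 groups and in the authors' processed values (Stra6 added). For WT from E8.5 to E9.5 it was 4, and 2 with plate as a random block. Which members were called also changed. Aldh1a2 lost its call in the authors' processed values (adjusted p = 0.535). Crabp1, Cyp26a1 and Cyp26b1 were each called under 1 alternative (limma adjusted p = 0.0296, 0.0138 and 0.00177), none of them a run with a single array left out. In KO over that step it was 1, and 2 with only these groups and 6 in the authors' processed values, with 1 to 2 when single arrays were left out. For the change of the KO effect from E8.5 to E9.5 it was 1, and 2 with the stricter detection filter, with no background correction, with only these groups and in the authors' processed values, with 1 to 2 when single arrays were left out. In the authors' processed values the sign from E8.5 to E9.5 was turned for Crabp1 (0.56 in KO, 0.45 in WT), Crabp2 (0.52 in KO) and Cyp26a1 (0.24 in KO). Those values scale E9.5 on its own. Under 1 alternative each, the sign of this step was also turned for Aldh1a2 in KO (0.06), Cyp26a1 in WT (0.16) and Cyp26b1 in WT (-0.08). Fitting plate as a covariate was not possible for the steps to E9.5.

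Replicate numbers are shared between WT and KO, but same-numbered arrays deviated together with r of -0.17 to 0.14, and 2 of 3 KO arrays at E8.5 and 1 of 4 at E9.5 correlated best with their own number. They share only a number. The replicate block gave 2 members called for the change of the KO effect from E8.5 to E9.5 (Crabp2 added), and changed no other count of members called. Near background, where Cyp26a1, Cyp26b1, Dhrs3 and late Aldh1a2 lie, the arrays give little resolution of levels.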
